A study of Mus musculus with 12 samples.

Results

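Liver gene expression was compared between 6 male C57BL/6 mice heterozygous for Sirt1 (SIRT1+/-, Het) and 6 wild-type males (SIRT1+/+, WT), with the diet as a second factor, which takes in all 12 arrays of the series. The arrays were chosen by their titles. Of each genotype, 3 mice had eaten a high-fat diet and 3 a low-fat diet for 34 weeks, so the groups were Het high-fat, WT high-fat, Het low-fat and WT low-fat. Each mouse gave 1 array of whole-liver RNA. The labels do not name the part of Sirt1 that is missing from the Het allele, the age of the mice, or any Cre line or tissue restriction. In RNA from whole liver, fewer cells of a type and less RNA per cell cannot be told apart.

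Sirt1 encodes a deacetylase that uses NAD as a cosubstrate and removes acetyl groups from histones and from transcription regulators such as p53, NF-kB, PGC-1alpha, FOXO factors and the bile acid receptor FXR. In liver it is known for its part in fatty acid oxidation, bile acid and cholesterol handling, glucose output and inflammation. The question put to the data was which transcripts differ with the loss of 1 Sirt1 copy, averaged over both diets.

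Levels below are log2 intensities relative to the 75th percentile of their own array, and a difference is Het minus WT, averaged over the diets with equal weight and given with its standard error (SE). The 75th percentile lay between 975.1 and 2006 intensity units on Het arrays and between 1151 and 1825 on WT arrays. The share of spots well above background was 58.8% to 68.4% on Het arrays and 58.0% to 71.6% on WT arrays. The number of arrays, not a read depth, limits the precision. A code in the sample descriptions was read as the slide, which gave 4 slides, numbered here in the order of the samples. Of these, 2 slides held both genotypes. Slide 1 carried WT high-fat mice 1 and 2, slide 2 carried WT high-fat mouse 3 with all 3 Het high-fat mice, slide 3 carried the 3 WT low-fat mice with Het low-fat mouse 1, and slide 4 carried Het low-fat mice 2 and 3. Genotype and slide therefore overlap only in part. A fit with slide as a fixed block compares the genotypes only within slides 2 and 3. It thus rests on WT high-fat mouse 3 and Het low-fat mouse 1 as the only mice of their groups. The summed linear level of the 11 measured hepatocyte markers is given as a multiple of the 75th percentile. It ran from 994 to 1427 in Het high-fat livers and from 951 to 1205 in WT high-fat livers. On the low-fat diet it ran from 1003 to 1340 in Het and from 1109 to 1481 in WT livers. Hepatocyte transcripts were thus abundant in every group, but no other tissue was set beside them to check the label.

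Sirt1 transcript was lower in the Het livers on both diets. The array reads it with 2 probes on chromosome 10 (mm7, minus strand). The brighter lies at chr10:62855795-62855854, and its 60 bases are printed because the check of the genotype labels rests on them, with no base capitalised.
Sirt1 brighter probe: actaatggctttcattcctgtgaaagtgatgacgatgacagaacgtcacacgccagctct
On this probe the Het high-fat livers had log2 levels of -0.72, -0.67 and -0.73, against -0.37, -0.26 and -0.17 in the WT high-fat livers. The Het low-fat livers had -0.37, -0.62 and -0.23, against 0.23, -0.05 and -0.09 in the WT low-fat livers. Every Het liver was below every WT liver of its own diet, while the Het low-fat and WT high-fat livers overlapped. The difference over both diets was -0.44 ± 0.09 (SE, n = 6 each), with a 95% interval of -0.65 to -0.23, and the Het level was 73.8% of WT.

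The dimmer Sirt1 probe, at chr10:62838289-62838348, gave -1.66, -1.59 and -1.69 in Het high-fat livers, against -1.14, -0.81 and -0.92 in WT high-fat livers. It gave -1.13, -1.18 and -1.12 in Het low-fat livers, against -0.69, -0.64 and -0.31 in WT low-fat livers. Again no Het liver reached a WT liver of its own diet. Its difference was -0.64 ± 0.09 (95% interval -0.85 to -0.44), a Het level of 64.1% of WT. For each probe an exact two-sided permutation test over the 12 mice, with genotype exchanged within the diets, gave p = 0.005, the smallest value that its 400 arrangements allow. The Het minus WT difference was -0.44 on high-fat and -0.43 on low-fat food for the brighter probe, and -0.69 and -0.60 for the dimmer one. The interaction with diet was -0.01 ± 0.19 and -0.09 ± 0.19 (limma adjusted p = 1 for each), which leaves room for a difference between the diets of up to about the size of the genotype effect itself. Within slides 2 and 3 the brighter probe differed by -0.54 and -0.40 and the dimmer by -0.72 and -0.58.

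**Figure D1:**
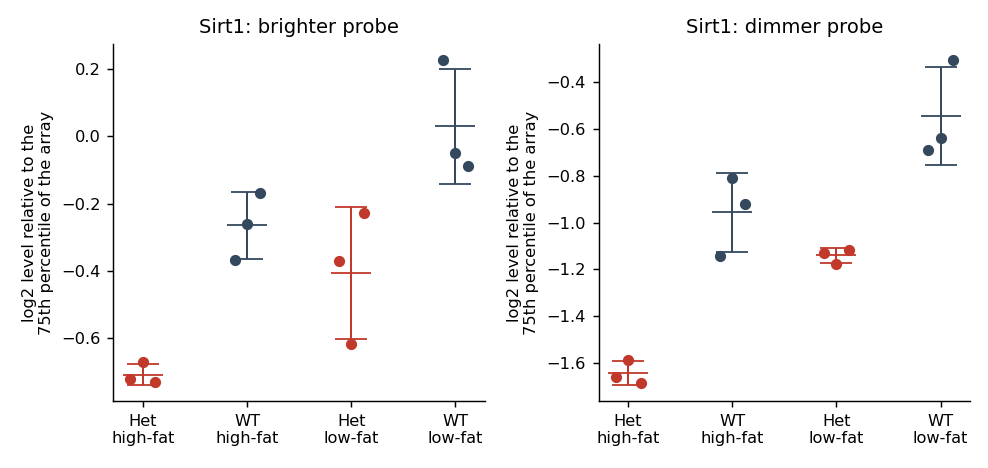
Sirt1 level of every mouse (points) on the brighter probe (left) and the dimmer probe (right), as log2 relative to the 75th percentile of the array, with the group mean and SD (bars, n = 3). In each diet the 3 Het livers lie below the 3 WT livers on both probes.

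In the test over all genes no transcript passed the threshold. Of 17042 genes tested with limma over both diets, 0 had a Benjamini-Hochberg adjusted p under 0.05, a share of 0%. The lowest adjusted p was 0.695. At an unadjusted p under 0.05 there were 824 genes (4.84%), 509 of them higher in Het (2.99%) and 315 lower (1.85%). The split between higher and lower depended on the scaling and on the filter for dim probes. As scaled here, 61.8% of these genes were higher in Het. The share was 46.9% after quantile normalization and 38.9% when arrays were scaled to their median. It was 54.5% after normexp background correction and 49.3% after a GC trend was removed. Among genes above background on all 12 arrays it was 54.1%, and with no filter on dim probes it was 74.1%. Sirt1 itself stood seventh in the order of p among the 17042 genes, with an adjusted p of 0.972 on its brighter probe, so the gene that the genotype alters did not pass a test over all genes either. Its dimmer probe stood second of 25296 probes, at an adjusted p of 0.355. On all 41168 non-control probes with values, with no filter on dim spots, 0 passed and 2019 (4.9%) had an unadjusted p under 0.05. Of those 2019 probes, 1521 were higher in Het and 498 lower.

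The size of the differences that these 12 arrays allow can be bounded gene by gene. The median SE of a genotype difference was 0.134, and the median 95% interval reached 0.295 to either side of its estimate. For 15937 genes (93.5%) the interval lay within a 2-fold change in either direction, and for 13063 genes (76.7%) within a 1.5-fold change. A difference of at least 1 on the log2 scale was estimated for 119 genes (0.698%). Levels of all 6 Het livers lay on one side of all 6 WT livers for 8 genes (0.0469%), 6 higher (0.0352%) and 2 lower (0.0117%) in Het. Within each diet, with the same direction in both, the genotypes did not overlap for 40 genes (0.235%), 23 higher (0.135%) and 17 lower (0.0998%). Sirt1 was 1 of them. The share of genes without overlap on 1 diet alone was not counted. Such a lack of overlap, of 3 mice against 3, is given below as a description only.

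Genotype took a small share of the variation among the 12 livers. Summed over the 16989 genes with a value on every array, genotype held 7.15% of the variance, with a mean square 1.202 times that of the residual. Diet held 39.1% (6.58 times the residual), their interaction 6.12% (1.03 times) and the residual 47.6%. In a principal component analysis the first axis took up 41.6% of the variance, and 92.7% of that axis went with diet and 3.03% with genotype. The axis with the largest genotype part was the third, with 10.8% of the variance and 29.6% of that by genotype. Diet and scan day cannot be told apart here, since high-fat and low-fat slides were scanned on different days, but each diet held both genotypes.

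The genotype difference on one diet said little about that on the other. The high-fat and low-fat differences share no mouse and no slide, and across the 17042 genes they correlated with Pearson r = 0.0914 and Spearman rho = 0.0228, a description in which genes are not independent. Their signs matched for 50.5% of genes. These values moved with the processing. With normexp background correction r was -0.028, rho was -0.127 and 44% of signs matched. After quantile normalization r was 0.121, rho was 0.0573 and 51.6% of signs matched. The median SE on a single diet was 0.189, while the median size of the difference over both diets was 0.09. The precision on each diet therefore limits how much agreement could be seen. Of the 100 genes of lowest p on the high-fat diet, 54 had the same sign on the low-fat diet, and their median size was 0.95 on the high-fat diet, against a median of 0.03 in the same direction on the low-fat diet. Of the 100 of lowest p on the low-fat diet, 52 kept their sign on the high-fat diet, where their median was 0.02. On the high-fat diet alone 0 genes passed and 1475 (8.66%) had an unadjusted p under 0.05; on the low-fat diet 0 passed and 341 (2%) did. The interaction of genotype and diet gave 0 genes after adjustment and 828 (4.86%) before it.

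**Figure D2:**
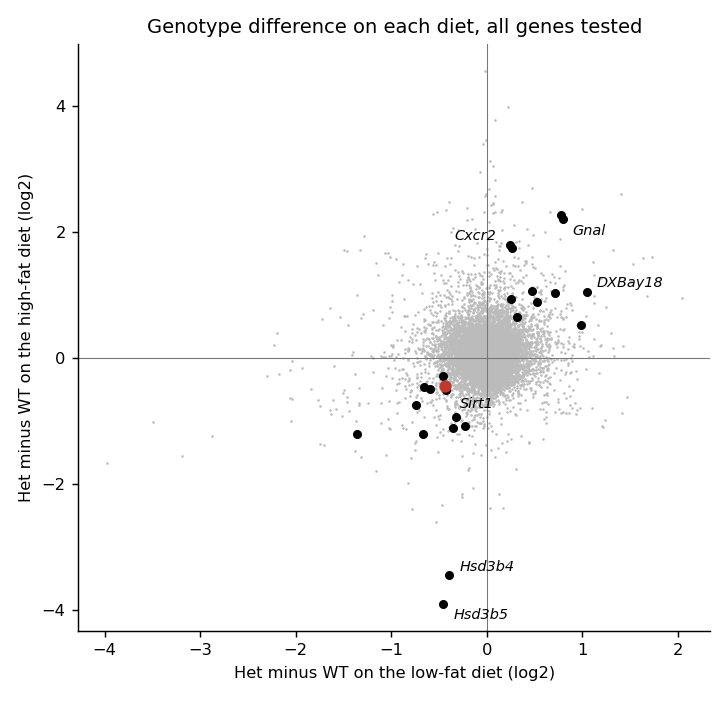
Het minus WT difference (log2) on the low-fat diet (x axis) and on the high-fat diet (y axis) for the 17042 genes tested (grey), with Sirt1 in red and the genes of lowest p in each direction, other than 1700072F12Rik, in black. The cloud shows little slope (r = 0.0914), Hsd3b4 and Hsd3b5 lie far down on the high-fat axis only, and Sirt1 lies close to equal differences on both.

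The 12 genes of lowest p with a higher level in Het, among those with a current symbol, had adjusted p from 0.695 to 0.972 and are given as values that did not pass. They were C1qtnf1, DXBay18, Pcgf2, Gnal, Scx, Cxcr2, Espn, 1700072F12Rik, Mtus2, Ppp1r1a, Il1rl1 and Aebp1. Only 4 of them, C1qtnf1, Scx, Espn and Mtus2, were well above background on all 12 arrays. Pcgf2, Gnal, Cxcr2, 1700072F12Rik and Il1rl1 passed the background filter only through the Het high-fat arrays, where they were highest. Ppp1r1a passed it only through Het groups. The filter thus favoured these genes for being high in Het, and their place in this list is no support for a difference. The high-fat difference was the larger for 10 of the 12, the exceptions being DXBay18 and Aebp1. The matching share of all genes tested was not counted. Of all genes tested with limma, 8.66% had an unadjusted p under 0.05 on high-fat food, against 2% on low-fat food. The count of 10 is therefore not read as a trait of these genes.

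C1qtnf1 encodes a secreted protein related to complement C1q and adiponectin. Its levels were -1.80, -2.004 and -2.13 in Het high-fat livers, against -2.61, -2.64 and -2.65 in WT high-fat livers. They were -2.67, -2.69 and -2.84 in Het low-fat livers, against -3.08, -2.95 and -3.11 in WT low-fat livers. Het livers lay above WT livers within each diet, with no overlap there. The difference was 0.48 ± 0.08 (limma adjusted p = 0.695), 0.66 on high-fat and 0.31 on low-fat food, and within slides 2 and 3 it was 0.67 and 0.37.

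Mtus2 encodes a microtubule-associated protein, and it is shown in sequence because it was measured with 3 probes that gave close values and because its levels did not overlap over all 12 mice. The probe used lies at chr5:147198289-147201375 (mm7, plus strand), a span longer than its 60 bases, so that it joins separate stretches of the genome. No base is capitalised.
Mtus2 probe: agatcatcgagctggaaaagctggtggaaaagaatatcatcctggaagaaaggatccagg
In Het livers Mtus2 ran from -2.70 through a median of -2.22 to -1.70, and in WT livers from -3.40 through -3.27 to -2.73. The lowest Het liver was just above the highest WT liver. The difference was 0.87 ± 0.20 (limma adjusted p = 0.972), 1.03 on high-fat and 0.72 on low-fat food, and the other probes gave 0.87 and 0.77.

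Other genes whose 6 Het and 6 WT levels did not overlap were Pcgf2, Gnal, Fut10, BX529199 and NAP100574-001, higher in Het, and Tra2b and ENSMUST00000080848, lower in Het; those outside the list of 24 were named after their values were seen. Pcgf2, a RING finger protein of the Polycomb group, ran from -5.35 to -4.84 in Het and from -6.29 to -5.37 in WT livers. It was above background on only 4 Het arrays and 1 WT array. Pcgf2 and Gnal entered the test only through the Het high-fat arrays, where they were high, so their lack of overlap is not counted as support. Fut10, a fucosyltransferase, differed by 0.29 ± 0.08, and Tra2b, a splicing regulator, by -0.34 ± 0.10. Both were above background on all 12 arrays, and neither passed (limma adjusted p = 0.972 and 0.974). NAP100574-001 had the lowest p of all genes tested, with a difference of 1.61 ± 0.26 (adjusted p = 0.695), and is named only by the array design. Its probe is printed because that lowest p rests on it, at chr16:17364943-17365030 (mm7, minus strand), with a run of 8 alternating bases in capitals.
NAP100574-001 probe: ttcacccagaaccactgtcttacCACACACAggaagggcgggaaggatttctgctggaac
It was above background on 8 of 12 arrays. Leaving out all probes with such a run did not bring any gene past the threshold.

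Several of the higher genes were dim or differed mainly on the high-fat diet. Cxcr2, the chemokine receptor that guides neutrophils, ran from -5.26 through -4.47 to -3.71 in Het and from -6.33 through -5.33 to -4.89 in WT livers, with overlap. Its difference was 1.01 ± 0.22, made of 1.75 on high-fat and 0.26 on low-fat food, and it was above background on 5 Het and 3 WT arrays. Within slide 2 it was 0.93 and within slide 3 -0.02. The other Cxcr2 probe gave 1.23 ± 0.58 and was above background on 6 arrays. Gnal, a G protein alpha subunit, and Il1rl1, the receptor for interleukin-33, were each above background on the 3 Het high-fat arrays, no Het low-fat array and 1 WT array. Their differences of 1.503 ± 0.30 and 1.52 ± 0.36 were thus taken mostly against levels at background, and with normexp background correction they were 0.48 and 0.41. For Il1rl1 a brighter probe that did not pass the filter gave 0.003 ± 0.278. Normexp correction also brought Pcgf2 to 0.20, Cxcr2 to 0.42, Ppp1r1a to 0.41, DXBay18 to 0.64, Scx to 0.31, Espn to 0.39 and Aebp1 to 0.39, while C1qtnf1 and Mtus2 moved by less than 1.5 times. Ppp1r1a, an inhibitor of protein phosphatase 1, differed by 1.79 on high-fat and 0.24 on low-fat food. 1700072F12Rik was above background on 3 Het arrays and on no WT array, and no fold is given, since the Het mean did not exceed the level that background sets on the WT arrays. DXBay18 differed by 1.05 ± 0.20, equally on both diets (1.05 and 1.05), with no overlap within either, and its other probe gave 0.94. Scx, a transcription factor of tendon, differed by 0.59 ± 0.13, and Aebp1, a protein of the extracellular matrix, by 0.75 ± 0.18. Espn, an actin-bundling protein, differed by 0.77 ± 0.17. The other Espn probe, above background on 4 arrays, gave 0.56 ± 0.37, with 1.53 on high-fat and -0.41 on low-fat food.

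The 12 genes of lowest p with a lower level in Het did not pass either, each with an adjusted p of 0.972. They were Tspan1, Trim67, Hsd3b4, Hacl1, Defb19, B230217O12Rik, Hsd3b5, Pdzd8, Pate5, Igkv4-55, Sft2d1 and Chst3. All but Trim67 were above background on all 12 arrays. Trim67 passed the background filter only through the WT low-fat arrays, where it was highest, so its place in this list is no support for a difference. Of the 12, 8 had the larger difference on the high-fat diet, a share that was not counted over all genes.

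Hsd3b5 and Hsd3b4 encode 3-ketosteroid reductases, and Hsd3b5 is known for its much higher level in the liver of males. Hsd3b5 was -4.18, -2.80 and -0.53 in Het high-fat livers, against 1.87, 0.19 and 2.16 in WT high-fat livers. It was 4.31, 3.45 and 4.60 in Het low-fat livers, against 4.35, 5.39 and 3.99 in WT low-fat livers. On the high-fat diet the genotypes did not overlap, and on the low-fat diet they did. The difference over both diets, -2.18 ± 0.58 (limma adjusted p = 0.972), thus averaged -3.91 on high-fat and -0.46 on low-fat food. Hsd3b4 gave nearly the same, -1.92 ± 0.47, with -3.45 and -0.40. The genes are close paralogs, so 1 transcript may reach both probes and the pair is not counted as separate evidence. The interaction with diet was -3.45 ± 1.16 for Hsd3b5 and -3.05 ± 0.93 for Hsd3b4 (adjusted p = 0.975 and 0.956).

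Among the remaining lower genes, Hacl1, an enzyme of peroxisomal fatty acid alpha-oxidation, was -0.23, 0.27 and 0.57 in Het high-fat livers, against 1.43, 0.997 and 1.42 in WT high-fat livers. The low-fat livers overlapped, with 1.89 to 2.37 in Het and 2.03 to 2.47 in WT. The difference was -0.65 ± 0.16, with -1.08 on high-fat and -0.22 on low-fat food. Tspan1, a tetraspanin, differed by -0.73 ± 0.16, with -1.10 and -0.35. Pdzd8, a lipid transfer protein of the endoplasmic reticulum, differed by -0.37 ± 0.10 without overlap within either diet, but its other probe gave -0.01 ± 0.21. With normexp correction Tspan1 gave -0.38, Trim67 -0.14, B230217O12Rik -0.31 and Sft2d1 -0.40, and Pate5 gave -0.26 with slide as a block. Trim67 and B230217O12Rik also did not overlap within either diet, at -0.54 ± 0.12 and -0.46 ± 0.12. Defb19, a beta-defensin, differed by -0.74 on each diet, Pate5 by -1.28 ± 0.35, Sft2d1 by -0.64 ± 0.18 and Chst3, a chondroitin sulfotransferase, by -0.56 ± 0.16.

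**Figure D3:**
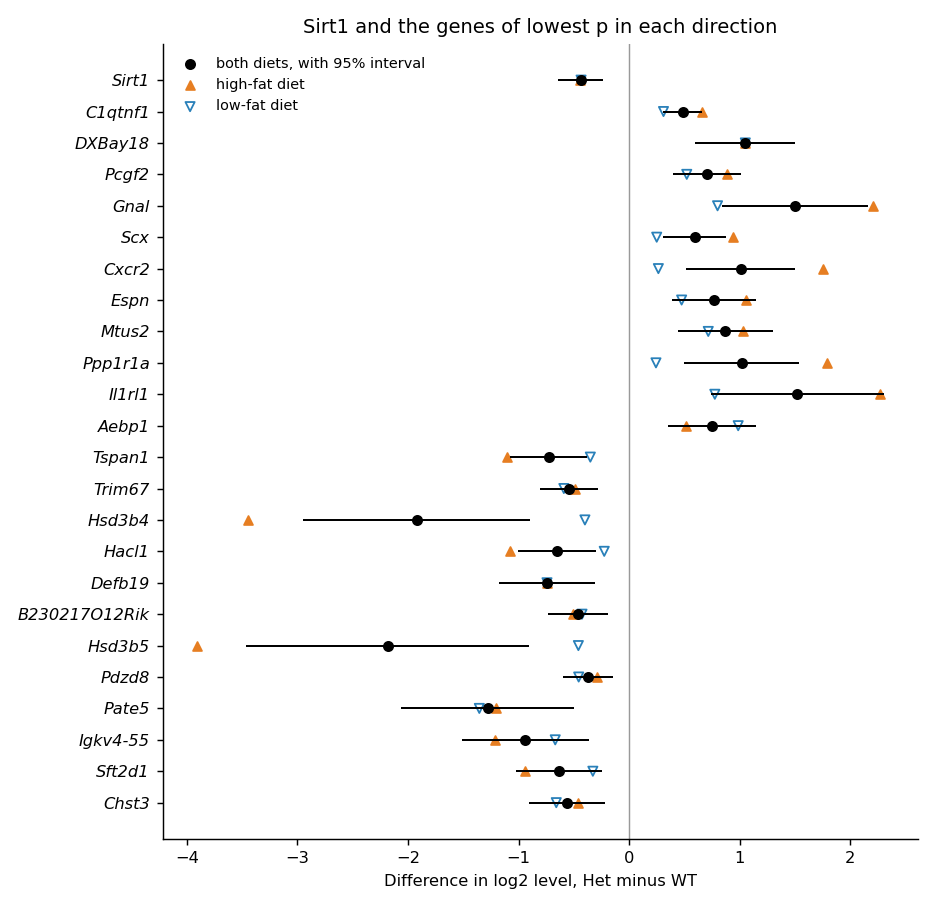
Het minus WT difference (log2) for Sirt1 and the 12 genes of lowest p in each direction, over both diets with its 95% interval (black) and on the high-fat (orange) and low-fat (blue, open) diet alone. For Sirt1, DXBay18, Trim67 and Defb19 the diets lie close together, and for Hsd3b4 and Hsd3b5 they lie far apart; 1700072F12Rik, for which no fold is given, is not drawn.

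**Figure D4:**
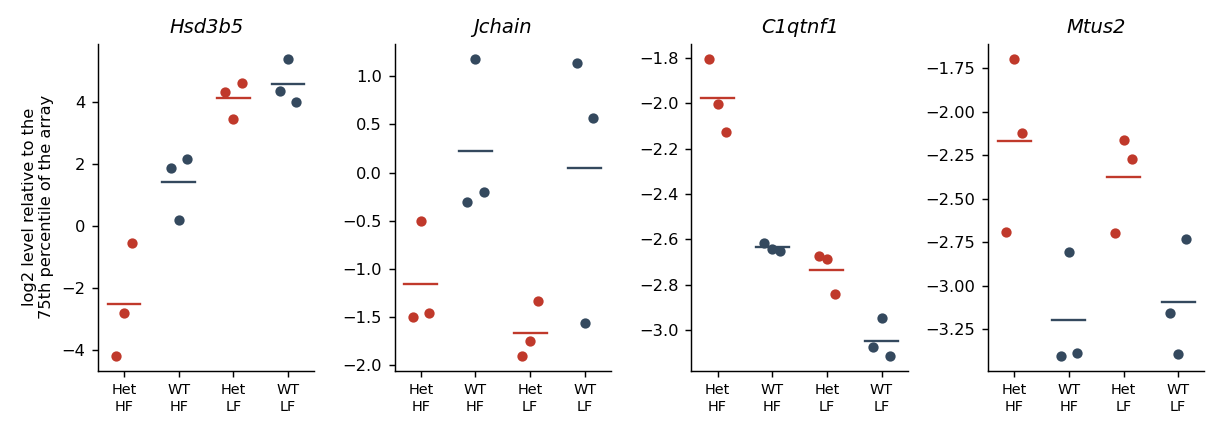
Level of each mouse (points) and group mean (lines) for Hsd3b5, Jchain, C1qtnf1 and Mtus2, as log2 relative to the 75th percentile of the array, on the high-fat (HF) and low-fat (LF) diet. Het lies below WT for Hsd3b5 on the high-fat diet alone, Jchain has 1 WT low-fat liver among the Het levels, and C1qtnf1 and Mtus2 lie higher in Het within each diet.

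The lists that follow are described by the count of measured members on each side of 0 and by their median difference, to be set beside the 17042 genes as a whole, of which 8903 were higher, 8139 lower, with a median of 0.01 and 4.84% at an unadjusted p under 0.05. Scaling arrays to their median moved the median of all genes to -0.05 and the list medians by a like amount, so the sign of a list median below about 0.05, and its count of higher members, depends on the scaling. No member of any list passed at an adjusted p under 0.05. The 6 measured sirtuins ran from -0.44 for Sirt1 to 0.10 ± 0.10 for Sirt2. Of 31 measured SIRT1 partners and substrates, 19 were higher and 12 lower, the median was 0.04 and 0 had an unadjusted p under 0.05. The lowest p there belonged to Per2, a clock protein (0.42 ± 0.21), and Kat2b, an acetyltransferase (-0.20 ± 0.12). Of 23 genes of NAD metabolism 15 were higher and 0 had an unadjusted p under 0.05, with Kmo, an enzyme of the kynurenine route, at -0.22 ± 0.10. All 23 intervals lay within a 2-fold change.

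Lipid genes had small median differences. For fatty acid oxidation and PPARA targets, 28 of 38 members were higher in Het, with a median of 0.05 (-0.002 when scaled to the median, -0.11 with slide as a block) and 0 at an unadjusted p under 0.05, and Ucp2 gave 0.31 ± 0.20. For oxidative phosphorylation and mitochondrial biogenesis, 15 of 27 were higher, the median was 0.00, and all 27 intervals lay within a 2-fold change. Fatty acid synthesis genes had a median of 0.06 (15 of 24 higher). Acss2, which makes acetyl-CoA from acetate, gave -0.40 ± 0.14 (unadjusted p = 0.0165, adjusted p = 0.999 by limma), with a level of 3.92 to 4.78 in Het and 4.56 to 4.95 in WT livers. Srebf1, the transcription factor of lipid synthesis, gave 0.30 ± 0.19. Lipid droplet and PPARG target genes were higher in Het for 17 of 18 members, with a median of 0.15 and 0 at an unadjusted p under 0.05. Lipase Lipe gave 0.24 ± 0.14 there. The 4 measured adipocyte markers ran from 28 to 69.7 in summed level in Het high-fat livers and 33.1 to 43.3 in WT high-fat livers, and from 5.51 to 11.3 in Het low-fat and 6.24 to 9.53 in WT low-fat livers; their part in that count was not tested. Of 18 lipoprotein genes 9 were higher, among them Apoa4 at 0.74 ± 0.29.

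Most genes of cholesterol synthesis and of bile acids had lower values in Het. In cholesterol synthesis and uptake 20 of 26 members were lower in Het, with a median of -0.10, -0.19 on high-fat and 0.00 on low-fat food, and 0 had an unadjusted p under 0.05. Cyp51, the lanosterol demethylase, gave -0.34 ± 0.16 and Pmvk, phosphomevalonate kinase, -0.28 ± 0.13. For LXR targets and sterol export 9 of 13 were higher, median 0.08. In bile acid synthesis and transport 17 of 22 were lower, with a median of -0.09 and 2 members (9.09%) at an unadjusted p under 0.05. These were Slco1a1, an organic anion transporter, at -0.99 ± 0.39, with -1.77 on high-fat and -0.20 on low-fat food, and Akr1d1, a steroid reductase, at -0.34 ± 0.14. In gluconeogenesis and insulin signalling 15 of 24 were higher. Insr, the insulin receptor, gave -0.24 ± 0.10.

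Male-biased liver genes had the largest share of members at an unadjusted p under 0.05 among the pathway lists, 4 of 18 (22.2%), all lower in Het. In all 15 of 18 were lower, with a median of -0.14 on each diet. Beside Hsd3b5 and Slco1a1, Susd4, a regulator of complement, differed by -0.80 ± 0.23, with -0.94 on high-fat and -0.66 on low-fat food. Susd4 ran from -0.59 through 1.23 to 2.24 in Het and from 0.84 through 1.80 to 2.82 in WT livers, with overlap. Of 17 female-biased genes 10 were higher, the median was 0.02 and 0 had an unadjusted p under 0.05. Members of these lists are regulated together, so their counts are not counts of independent genes.

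Stress and inflammation lists were mixed. Of 23 genes of the NF-kB pathway and cytokines 17 were higher (median 0.09), with Nfkb1 at -0.22 ± 0.09 and Nfkb2 at 0.23 ± 0.09. Of 24 acute phase genes 18 were higher (median 0.12), among them Orm2, an orosomucoid, at 0.30 ± 0.09 and Socs3, a cytokine signalling inhibitor, at 0.46 ± 0.17. Of 19 p53 targets 10 were higher (median 0.00), and Phlda3 gave 0.39 ± 0.13, with -0.03 on high-fat and 0.81 on low-fat food. Of 19 NRF2 targets 11 were higher, with Cbr3, a carbonyl reductase, at 0.51 ± 0.21. Of 22 interferon-stimulated genes 11 were higher and 11 lower, with Mx1 at 0.73 ± 0.30 and Iigp1 at -0.22 ± 0.09. The lists of ER stress, heat shock, autophagy, cell cycle and xenobiotic metabolism held 0 members at an unadjusted p under 0.05, with medians from -0.04 for heat shock to 0.10 for the cell cycle.

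Circadian genes had the largest pathway median, 0.23, with 14 of 18 higher in Het and 1 member, Per3 at 0.60 ± 0.27, at an unadjusted p under 0.05. The hour at which livers were taken is not stated in the labels. Of 15 immediate early genes 14 were higher, with a median of 0.16, and Ier3 gave 0.37 ± 0.16. That median was -0.02 on high-fat and 0.28 on low-fat food, and over both diets it was 0.03 without Het low-fat mouse 1. With slide as a block the circadian median was 0.50 and the immediate early one 0.45. That fit sets the 3 Het high-fat mice against WT high-fat mouse 3 alone. On the low-fat diet it sets Het low-fat mouse 1 alone against the 3 WT mice.

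Among markers of single cell types, those of B and plasma cells were lower in Het for all 6 measured of 9 listed, with a median of -0.57 and 2 (33.3%) at an unadjusted p under 0.05. Jchain, which joins immunoglobulin units in plasma cells, was -1.50, -0.50 and -1.46 in Het high-fat livers, against -0.30, 1.18 and -0.21 in WT high-fat livers. It was -1.90, -1.75 and -1.33 in Het low-fat livers, against 1.14, -1.57 and 0.57 in WT low-fat livers. WT low-fat mouse 2 lay among the Het livers, and the high-fat groups did not overlap. The difference was -1.54 ± 0.44 (limma adjusted p = 0.972), and the other Jchain probe gave -1.56 ± 0.49. Mzb1, a plasma cell chaperone, differed by -1.08 ± 0.37 (adjusted p = 0.999). Without WT low-fat mouse 1 the list median was -0.30. The summed level of the 6 markers was 3.25 to 4.67 in Het high-fat livers, against 4.93 to 7.26 in WT high-fat livers. It was 2.80 to 4.25 in Het low-fat livers, against 2.93 to 9.68 in WT low-fat livers, so the groups were apart on the high-fat diet and overlapped on the low-fat diet.

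Immunoglobulin genes, picked after Igkv4-55 had appeared among the lower genes, are given without a test. Of 13 measured, 12 were lower in Het, 10 of them on both diets, and the median was -0.60. Ighm, which is in this set, is also among the B and plasma cell markers above. Their mean level was -3.83, -3.34 and -3.86 in Het high-fat livers, against -3.40, -2.60 and -3.49 in WT high-fat livers. It was -3.91, -3.57 and -3.60 in Het low-fat livers, against -2.60, -3.73 and -2.75 in WT low-fat livers. WT low-fat mouse 2 was again low, and Het high-fat mouse 2 lay above WT high-fat mice 1 and 3. Igkv4-55 differed by -0.94 ± 0.26, with -1.21 on high-fat and -0.67 on low-fat food. Variable segments share sequence, so their probes may read more than 1 segment.

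Other cell types gave smaller medians or few markers. Stellate cell and fibrosis markers were higher in Het for 19 of 21, with a median of 0.20, and Tgfb1 and Des, a cytokine of fibrosis and an intermediate filament of stellate cells, each gave 0.26 (SE 0.10 and 0.11). Their summed level was 98.8 to 149.8 in Het high-fat and 97.3 to 114.2 in WT high-fat livers, and 71.5 to 96.0 in Het low-fat and 78.2 to 81.0 in WT low-fat livers, with overlap on both diets. Cholangiocyte markers were higher for 8 of 9, median 0.32, with Cftr, the chloride channel of bile ducts, at 0.66 ± 0.27 and Krt19 at 0.39 ± 0.23. Their summed level spanned 13.8 to 71.1 in Het high-fat livers alone, around 20.9 to 25.3 in WT high-fat livers, and the list median was 0.04 without Het high-fat mouse 1 and 0.60 without Het high-fat mouse 2. Of 8 neutrophil markers 6 were higher, median 0.29, or -0.07 without WT high-fat mouse 3. Of 23 macrophage and Kupffer cell markers 12 were higher (median 0.01), with Mmp12, a macrophage protease, at 0.69 ± 0.34 and Cd163, a scavenger receptor, at -1.40 ± 0.57. Cd163 was -2.18, 1.46 and -2.28 in Het high-fat livers, against 1.11, 1.18 and 1.72 in WT high-fat livers, so Het high-fat mouse 2 lay among the WT livers. Its difference was -2.34 on high-fat food (limma adjusted p = 0.468) and -0.47 on low-fat food. Without that mouse the high-fat difference was -3.57. The mouse is singled out by its value for this same gene, so the value without it is no test. Of 13 endothelial markers 10 were lower, with Kdr at -0.24 ± 0.10. Of 15 T and NK cell markers 7 were higher, with a median of 0.24 on high-fat and -0.34 on low-fat food. Their summed level was 2.14 to 2.47 in Het high-fat and 1.66 to 2.02 in WT high-fat livers, without overlap, and 1.85 to 2.48 in Het low-fat and 2.26 to 2.91 in WT low-fat livers. Ptprcap, a phosphatase-associated protein of lymphocytes, gave -0.34 ± 0.11 over both diets, without overlap within either. Of 11 hepatocyte markers 5 were higher, with a median of 0.00. Markers of red blood cells, adipocytes and pancreatic acinar cells had 4 measured members each.

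**Figure D5:**
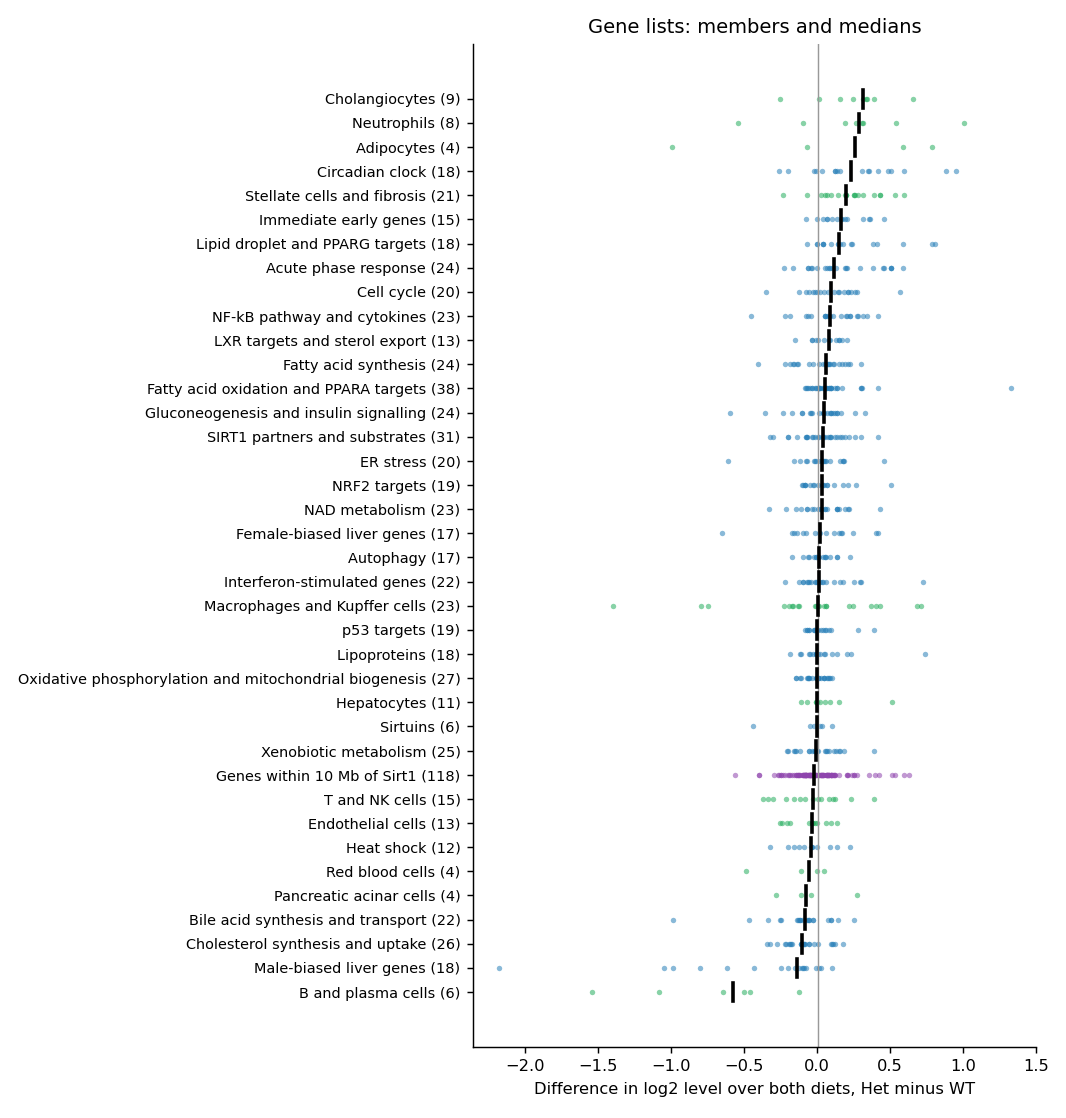
Het minus WT difference over both diets (log2) of each measured member (points) and the median (black bar) of every pathway list (blue), cell type list (green) and the genes within 10 Mb of Sirt1 (purple), with the number measured in brackets and the median of all genes as a grey line. Medians lie between -0.57 for B and plasma cells and 0.32 for cholangiocytes.

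Genes near Sirt1 on chromosome 10 travel with its allele in breeding and were described as a list of their own. Within 10 Mb, 118 genes were measured, 51 higher and 67 lower in Het, with a median of -0.02 and 3 (2.54%) at an unadjusted p under 0.05, against 4.84% of all genes. These were Chst3, Unc5b, a netrin receptor, at 0.53 ± 0.22, and 2510042O18Rik at -0.22 ± 0.10. Within 5 Mb, 77 genes had a median of -0.04 and 3.9% at an unadjusted p under 0.05. The nearest measured genes, Herc4 and Dnajc12, differed by -0.13 ± 0.06 and 0.07 ± 0.10. Herc4 was -0.28 ± 0.09 on high-fat food and 0.01 ± 0.09 on low-fat food. Its levels were 2.13, 2.13 and 2.10 in Het high-fat livers, against 2.37, 2.42 and 2.41 in WT high-fat livers.

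One library decided part of the counts. Without WT high-fat mouse 3, the only WT high-fat array on the slide of the Het high-fat livers, 7 genes had an adjusted p under 0.05 in limma over both diets, and with it 0 did. Of these, Cxcr2 and P4htm were higher in Het (1.21 and 0.81), while H1f1, LOC545547, Lrrc66, Slc16a8 and TC1510315 were lower, by values from -1.39 to -1.81. Slc16a8, a lactate transporter, shows what the lower genes had in common. It was -3.10, -3.27 and -3.83 in Het high-fat livers, against 0.20, -0.47 and -3.43 in WT high-fat livers. The low-fat livers lay between -4.04 and -3.55 in Het and between -3.83 and -3.03 in WT. WT high-fat mice 1 and 2, both on slide 1, stood apart from the 10 other arrays for this gene, and for H1f1 they had -0.02 and -0.40 against -4.07 in WT high-fat mouse 3. Without the arrays of slide 1, a setting chosen after seeing the data, 0 genes passed over both diets and 674 had an unadjusted p under 0.05. Slide 1 and its mice cannot be told apart.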

How the data were processed

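Liver RNA of 12 mice was hybridised to 1-colour Agilent arrays (Cy3). The submitters' processing notes name Agilent Feature Extraction 9.5 as the source of the processed intensity in the deposited scanner tables; background subtraction and detrending are recorded per the file headers, and no normalization between arrays is. The raw mean and background intensity and the 0 or 1 flags, which have no unit (other), are columns of the same deposited tables, per the file headers. The deposited series table held the same intensity values.

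From these, the log2 of the processed intensity was taken and the log2 of each array's 75th percentile over non-control spots subtracted. The 1344 outlier-flagged spots were left out, saturated spots kept, and spots of a probe averaged (41174 probes). A probe entered when it stood well above background on every array of 1 or more groups and had at least 2 values in each (25296 probes), and 1 probe a gene, the one of highest mean, was tested (17042 genes, 14211 with a current symbol). Names came through RefSeq accession for 22944 probes, current symbol for 6664 and older symbol for 3108, while 8458 are called as on the array. Coordinates are on mm7, per the file headers.

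The 4 group means were estimated in limma 3.58.1 (R 4.3.3, 8 residual and 2.8 prior degrees of freedom), two-sided, with Benjamini-Hochberg adjustment over all genes at 0.05. The fit was tested on simulated data. Named genes are every Sirt1 probe, the 12 of lowest p in each direction with a current symbol, the 2 members of lowest p of each of 37 lists and 4 neighbours of Sirt1; not all are printed. The labels call the mice biological replicates. The comparison, members and lists were chosen with earlier results of these data known. Alternatives covered scaling, background, filters, slide, replicate number, GC and leaving out each array.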

Additional observations from a re-analysis of the deposited data

Results flagged for a closer look

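Among 194 groups of 6 arrays of 1 genotype, looked at for the named genes, 4 held an array whose gap to the nearest other, as a share of the group's range, was above the 95% critical value. Chance flags about 1 group in 20. Sirt2 was at 2.57 in WT low-fat mouse 3, with the nearest WT array at 2.12. Tfb2m, a mitochondrial transcription factor, was at 2.58 in WT low-fat mouse 1, with the nearest at 2.20. Slc4a1, the anion exchanger of red blood cells, was at -1.15 in WT high-fat mouse 2, with the nearest at -2.88. Alas2, the haem synthesis enzyme of red blood cells, was at 4.25 in WT low-fat mouse 2, with the nearest at 3.81. All are levels on the log2 scale relative to the 75th percentile of the array, diet is not taken out of them, and no cause was tested.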

How the results depend on the processing

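Over both diets 0 genes passed in the fit as reported and under every other setting, except that 1 passed with slide as a fixed block (Clca4b, at 1.61 in that fit and -0.05 ± 0.72 in the reported one) and between 0 and 7 when 1 array was left out. On the high-fat diet alone the reported 0 became 2 after quantile normalization and ran from 0 to 48 with 1 array left out. The 48 came without WT high-fat mouse 3. On the low-fat diet it became 1 with slide as a fixed block and ran from 0 to 1. The interaction count ran from 0 to 3. For single genes, Nmrk2 turned to -0.012 and Ltf to 0.30 with slide as a fixed block, Ltf to 0.40 without slide 1, and Cox4i1 to -0.011 with the GC trend removed; the cause was not tested. Cxcr2 passed without WT high-fat mouse 3 (adjusted p = 0.0347). Sirt1 kept its direction throughout, from -0.48 to -0.39 on the brighter probe and from -0.69 to -0.58 on the dimmer one with 1 array left out, and -0.47 ± 0.15 and -0.65 ± 0.15 with slide as a fixed block. The count at an unadjusted p under 0.05 ran from 518 of 17042 genes (3.04%) without Het low-fat mouse 2 to 1345 (7.89%) with slide as a random block. Scaling to the median moved the median of all genes to -0.05. Samples with the same replicate number did not deviate together (correlations from -0.46 to 0.12), which cannot settle whether the numbers pair mice. With a replicate block 0 genes passed, 735 had an unadjusted p under 0.05, and Sirt1 gave -0.44 ± 0.10 and -0.64 ± 0.10. Intervals at 6 arrays a genotype, and probes near background, limit what could be seen.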
